A study of Homo sapiens with 24 samples.

Results

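The BCL2 family genes examined here were the BH3-only genes BCL2L11, BBC3, PMAIP1, BMF, BIK and BID, the effectors BAX and BAK1, and the survival genes MCL1 and BCL2L1. They were taken as the rows of the deposited count table with these gene names, 10 of 18915 rows. All 10 passed the filter on low counts, which left 12685 genes for testing. RNA was profiled by 3′ mRNA-Seq in HepG2, an established human hepatoma cell line (ATCC), in 6 groups of 4 libraries: vehicle (DMSO), 50 nM ISRIB, 20 µM nelfinavir (Nelf), 50 nM bortezomib (Btz), Btz+Nelf and Btz+ISRIB, the combinations at the same doses. Treatment lasted 10 h. Bortezomib inhibits the proteasome, nelfinavir is an antiretroviral drug that lets phosphorylated eIF2α accumulate, and ISRIB makes cells insensitive to phosphorylated eIF2α. All groups were the same unmodified line. The labels call the 4 libraries of a group biological replicates without naming separate cultures, so p-values measure the spread between these libraries, part of which may be technical.

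Proteins of the BCL2 family decide whether the outer mitochondrial membrane is opened during apoptosis. BAX and BAK1 form the pores, MCL1 and BCL2L1 (BCL-XL) hold them in check, and BH3-only proteins are made or activated under stress and either occupy the survival proteins or activate the pore formers. Several BH3-only genes are known targets of stress transcription factors such as ATF4, CHOP and the FOXO factors, and many of the proteins, MCL1 and NOXA (PMAIP1) above all, are short-lived and degraded by the proteasome. RNA levels are measured here, so protein levels are not covered.

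Markers of hepatocytes and of other cell types were checked first, which cannot tell HepG2 from other hepatocyte-like cells. All 10 hepatocyte markers passed the filter, and ALB lay between 1561 and 3531 CPM (read counts scaled to library size) in the 24 libraries. Of the leukocyte, endothelial and stromal markers, CD14 reached at most 11 counts, COL1A1 at most 5 and PDGFRB at most 3 in any library, and PTPRC, CD3E, PECAM1, CDH5, COL1A2 and DCN had no row in the table used. Library totals were 5950624 to 6943164 counts without Btz and 5154533 to 6173764 with it. Mitochondrially encoded genes took 18.02% to 23.23% of counts without Btz and 24.94% to 40.18% with it, and the part of this shift in the results below was not tested beyond the scaling alternatives given with them. The 4 Btz+Nelf libraries stood apart in pairs: the chi-square per degree of freedom between libraries was 3.99 for replicates 1 and 2 and 7.3 for replicates 3 and 4, against 13.21 to 20.31 across the pairs, and the mitochondrial share was 28.48% and 29.64% in the first pair and 24.94% and 25.57% in the second. The calls that rest on 1 pair are given with and without it, a choice made after seeing the data. Btz+ISRIB replicate 4 had the smallest total, the lowest TMM factor (0.7866) and the highest mitochondrial share (40.18%, the others of its group 32.61% to 36.3%). In Btz+ISRIB the chi-square per degree of freedom was 3.29 for replicates 1 and 2 and 22.03 for replicates 3 and 4. Replicate 3 stood at 11.73 and 12.44 from replicates 1 and 2, and replicate 4 at 8.6 and 9.69. CPM values are scaled by trimmed mean of M-values (TMM) factors. Counts come from the 3′ end of transcripts, so CPM does not grow with transcript length.

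The genes lie, in GRCh37, at chr2:111876955-111926021 (BCL2L11, plus strand), chr19:47724079-47736023 (BBC3, minus), chr18:57567228-57571537 (PMAIP1, plus), chr15:40380091-40401093 (BMF, minus), chr22:43506756-43525718 (BIK, plus), chr22:18216904-18257536 (BID, minus), chr19:49458072-49465055 (BAX, plus), chr6:33540324-33548070 (BAK1, minus), chr1:150533371-150552214 (MCL1, minus) and chr20:30252255-30311792 (BCL2L1, minus). RefSeq promoter windows (GRCh38.p14, 250 bases before to 50 after a transcript start) matched 8 of the 10 genes, with 14 windows. BIK and MCL1 had no entry. The windows were searched on both strands for TGATGNAA, the core of the C/EBP–ATF composite site, for the ATF/CRE element TGACGT and for the E-box CACGTG. Of 34941 windows of the same length, 3.62%, 7.97% and 7.23% held them. The promoters of the 4 BH3-only genes that the results turn on are shown for their sequence, with matches in capitals.
PMAIP1 (chr18:59899746-59900045, plus strand): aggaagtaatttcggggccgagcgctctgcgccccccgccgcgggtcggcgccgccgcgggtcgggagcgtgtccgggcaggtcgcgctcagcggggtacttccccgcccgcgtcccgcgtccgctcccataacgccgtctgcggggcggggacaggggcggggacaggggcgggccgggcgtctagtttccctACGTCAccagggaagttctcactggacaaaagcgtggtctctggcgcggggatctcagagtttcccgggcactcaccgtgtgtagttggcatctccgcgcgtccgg
BBC3 (chr19:47232618-47232917, minus strand): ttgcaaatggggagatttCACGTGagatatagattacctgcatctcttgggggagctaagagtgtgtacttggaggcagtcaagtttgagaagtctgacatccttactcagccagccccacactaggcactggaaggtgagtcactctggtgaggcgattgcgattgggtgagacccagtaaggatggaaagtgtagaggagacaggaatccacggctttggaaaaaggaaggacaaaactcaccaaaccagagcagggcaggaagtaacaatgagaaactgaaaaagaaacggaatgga
BCL2L11 (chr2:111120664-111120963, plus strand): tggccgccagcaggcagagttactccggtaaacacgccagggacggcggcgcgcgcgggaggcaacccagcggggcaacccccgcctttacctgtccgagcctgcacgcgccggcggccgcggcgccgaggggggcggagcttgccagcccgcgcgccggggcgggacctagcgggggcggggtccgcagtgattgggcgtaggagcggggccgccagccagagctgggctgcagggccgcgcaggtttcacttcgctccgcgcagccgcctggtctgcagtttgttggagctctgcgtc
BMF (chr15:40108830-40109129, minus strand, the first of 2 windows): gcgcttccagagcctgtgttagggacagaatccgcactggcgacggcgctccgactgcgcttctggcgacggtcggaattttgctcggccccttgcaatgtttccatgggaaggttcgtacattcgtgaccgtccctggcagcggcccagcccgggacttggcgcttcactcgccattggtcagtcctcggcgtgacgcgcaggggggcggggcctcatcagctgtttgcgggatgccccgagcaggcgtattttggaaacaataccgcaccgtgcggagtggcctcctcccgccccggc
The capitals in PMAIP1 are the reverse complement of the ATF/CRE element, 56 bases before the start, and those in BBC3 are an E-box. The BAX window held 4 E-boxes, and 2 overlapping BID windows held 1, the same site in both. TGATGNAA was found in none of the 14 windows, which says only that these letters are not there.

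PMAIP1 and BBC3, which encode the BH3-only proteins NOXA and PUMA, were the members with the largest rises under Btz, and both were highest in Btz+Nelf. The study picked BCL2L11, PMAIP1 and BBC3 out of an apoptosis gene category in these same libraries, so their directions are not independent evidence. It described these genes as raised by Btz, with a rise that ISRIB blunted or nelfinavir augmented. Here BCL2L11 did not rise with Btz (log2 -0.01 against DMSO). Nor was it lower with ISRIB added to Btz (log2 0.49, short of the test), while it rose with Nelf added to Btz (1.48). In bulk libraries, a changed share of expressing cells and a changed level per cell cannot be told apart, here and in every result below. For the whole family, 5 members rose and 1 fell in Btz against DMSO (edgeR quasi-likelihood test, Benjamini-Hochberg adjusted p under 0.05), while 27.6% of all tested genes were higher and 25.8% lower. The median log2 change of the members was 0.53, against 0.00 over all tested genes.

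**Figure D1:**
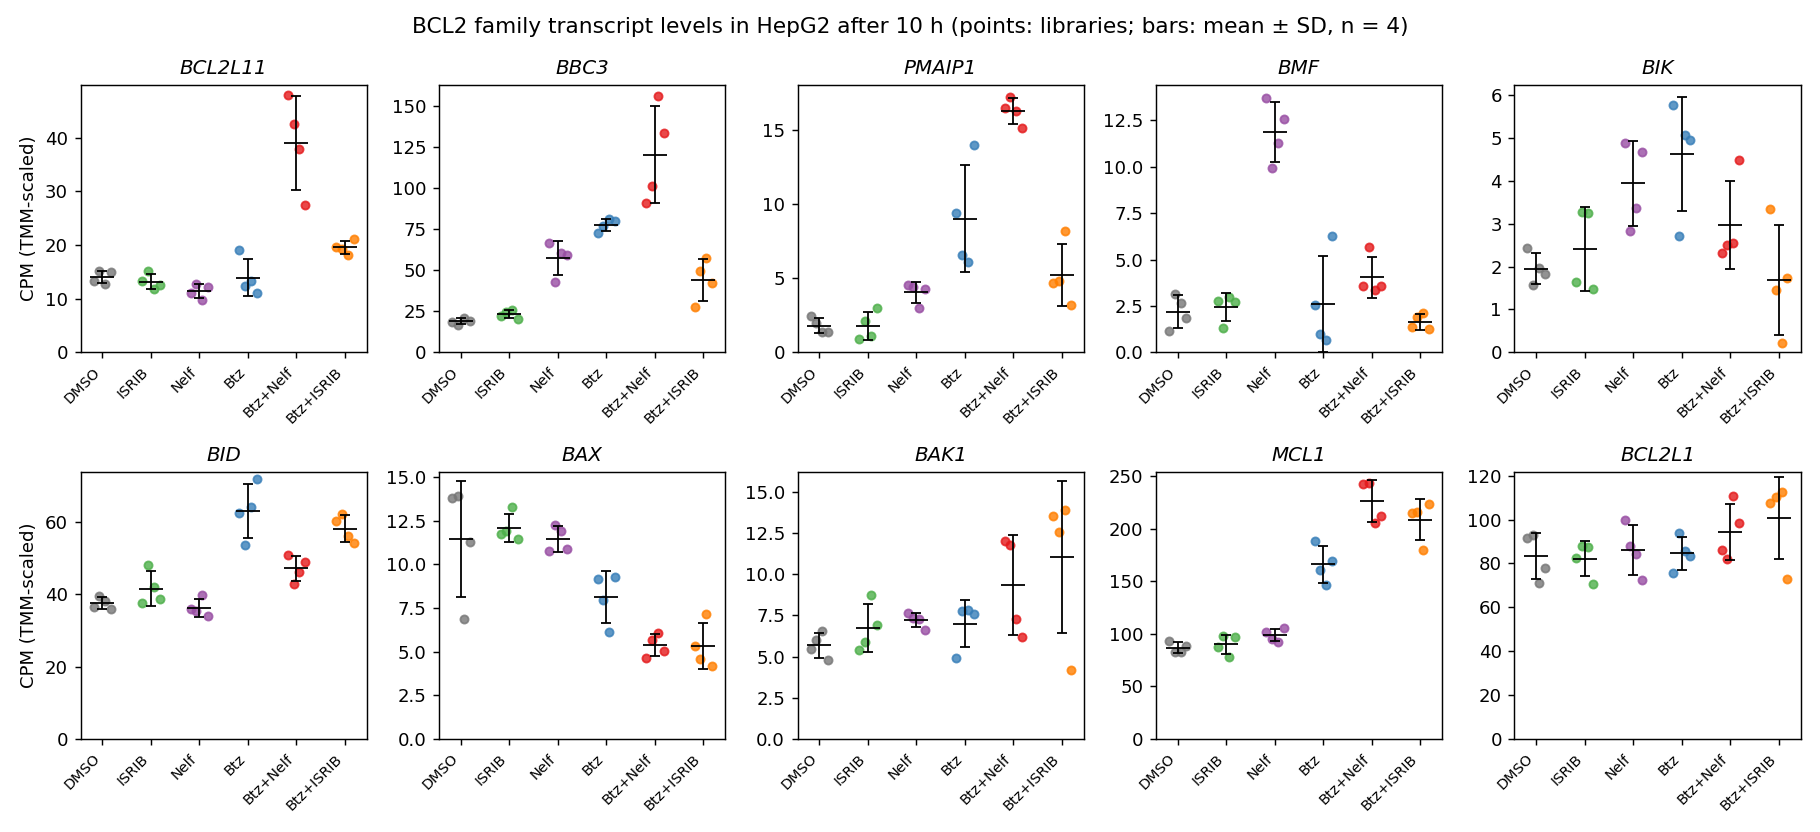
TMM-scaled CPM (vertical axes, linear, from 0) of each BCL2 family member in 6 treatment groups (horizontal axes). Points are libraries and bars are the mean ± SD of 4 libraries. PMAIP1 lay between 15.2 and 17.2 CPM in Btz+Nelf, above every other library, and the 4 Nelf libraries stood above all others for BMF.

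PMAIP1 was low in vehicle, at 2.44, 1.95, 1.4 and 1.35 CPM in DMSO replicates 1 to 4, which is 10 to 21 counts. It was 9.41, 6.59, 6.12 and 14.04 CPM with Btz, 4.54, 4.39, 2.98 and 4.28 CPM with Nelf, and 16.5, 17.2, 16.3 and 15.2 CPM with Btz+Nelf. None of these treated groups overlapped DMSO, and Btz+Nelf lay above every Btz library. The rise was 2.32 on the log2 scale for Btz over DMSO (SE 0.331, adjusted p = 4.34e-07) and 1.17 for Nelf over DMSO (SE 0.339, adjusted p = 0.0127). Nelf added to Btz gave a further 0.85 (SE 0.283, adjusted p = 0.0222), a call that was lost without Btz replicate 2 (0.77, adjusted p = 0.059) or without Btz replicate 3 (0.74, adjusted p = 0.0641), and also without Btz+Nelf replicates 1 and 2 (0.87, adjusted p = 0.0529) or 3 and 4 (0.91, adjusted p = 0.0561). With Btz+ISRIB PMAIP1 was 4.67, 4.81, 8.21 and 3.21 CPM. These values overlapped those of Btz alone, and the difference of -0.77 (95% interval -1.41 to -0.14) did not pass the test over all genes (adjusted p = 0.101). Without Btz+ISRIB replicate 3, the highest of its group, it was -1.08 (adjusted p = 0.0268). Between the 2 co-treatments PMAIP1 was 3.09-fold higher in Btz+Nelf (adjusted p = 1.19e-04).

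BBC3 was 18.7, 16.6, 21.1 and 18.7 CPM in DMSO and 72.9, 77.0, 81.3 and 79.9 CPM in Btz, a 4.14-fold rise (log2 2.05, SE 0.172, adjusted p = 5.64e-12). Nelf alone gave 66.9, 43.0, 60.6 and 59.6 CPM, a 3.06-fold rise (adjusted p = 6.19e-09). In Btz+Nelf the libraries fell into a lower and a higher pair, at 91.3 and 102 CPM in replicates 1 and 2 and 156 and 134 CPM in replicates 3 and 4, and all lay above Btz. The difference from Btz was 0.64 on the log2 scale (SE 0.159, adjusted p = 0.00275). It was 0.96 without replicates 1 and 2 (adjusted p = 2.23e-05) and 0.32 without replicates 3 and 4, when the BBC3 call was lost (adjusted p = 0.186). These are the pairs that differed in mitochondrial share, and the part of that difference in BBC3 was not tested. Btz+ISRIB gave 27.4, 49.6, 57.6 and 41.9 CPM, every value below those of Btz and above those of DMSO. BBC3 fell by 0.81 on the log2 scale from Btz to Btz+ISRIB (SE 0.166, adjusted p = 9.20e-04), and it was 2.73-fold higher in Btz+Nelf than in Btz+ISRIB (adjusted p = 4.30e-08). ISRIB alone left BBC3 at 21.9, 24.5, 25.8 and 20.2 CPM, which overlapped DMSO.

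BCL2L11, which encodes BIM, an activator that can bind every survival protein, followed another course. It was 13.4, 15.1, 12.7 and 14.9 CPM in DMSO, 11.1, 12.8, 9.73 and 12.2 CPM in Nelf, and 19.0, 12.4, 13.3 and 11.02 CPM in Btz. The groups overlapped, and neither Btz (log2 -0.01, 95% interval -0.37 to 0.34) nor Nelf (-0.29, interval -0.64 to 0.05) passed the test against DMSO. With Btz+Nelf it was 48.0, 42.7, 37.9 and 27.4 CPM, above every library of the other groups. The rise over Btz was 2.79-fold (log2 1.48, SE 0.170, adjusted p = 4.28e-08), 1.29 on the log2 scale without Btz+Nelf replicates 1 and 2 and 1.71 without replicates 3 and 4, and the level was 1.99-fold that of Btz+ISRIB (adjusted p = 2.80e-05). Btz+ISRIB gave 19.6, 19.3, 18.1 and 21.2 CPM. It was 0.49 above Btz on the log2 scale without passing the test (adjusted p = 0.0676), and passed it without Btz replicate 1, the highest Btz library (0.67, adjusted p = 0.0131).

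A long noncoding gene on the opposite strand spans BCL2L11 in GENCODE 44 lifted to GRCh37, and no source used here gives the strand setting of the counting, so the reads of both genes may not be separated. The table lists it as MIR4435-1HG, with 29257 counts over all libraries against 2584 for BCL2L11. It averaged 232 ± 12.4 CPM in DMSO (SD, n = 4), 98.6 ± 3.91 in Nelf, 131 ± 15.6 in Btz, 247 ± 33.9 in Btz+Nelf and 225 ± 35.0 in Btz+ISRIB. Both genes rose from Btz to Btz+Nelf, MIR4435-1HG by 0.92 on the log2 scale (adjusted p = 3.38e-08). From Btz to Btz+ISRIB MIR4435-1HG rose by 0.785 (adjusted p = 1.85e-06), where BCL2L11 gave 0.486 without passing. For Nelf against DMSO MIR4435-1HG gave -1.24 (adjusted p = 2.48e-11), where BCL2L11 gave -0.293 without passing. MIR4435-1HG was 0.83 lower with Btz than with DMSO (log2 -0.83, adjusted p = 2.99e-08), where BCL2L11 did not pass, and Btz+Nelf and Btz+ISRIB differed by 0.13 (adjusted p = 0.37), where BCL2L11 differed by 0.99. The Nelf effect on MIR4435-1HG was larger with Btz than without it, by 2.15 (interaction, adjusted p = 6.65e-13). Its ISRIB interaction was 0.747 (adjusted p = 0.00112), where BCL2L11 gave 0.576 without passing. The last 500 bases of BCL2L11 coding transcripts shared 146 bases at 100% identity with this gene, which GENCODE 44 names MIR4435-2HG. The part of the antisense gene in the BCL2L11 counts was not tested. In the same search, for 80 or more bases at 97% identity or more, BCL2L1 shared 140 bases with ABALON and MCL1 shared 330 with ADAMTSL4-AS1, which had 5 counts in all libraries, and the other 7 members had no such match.

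**Figure D2:**
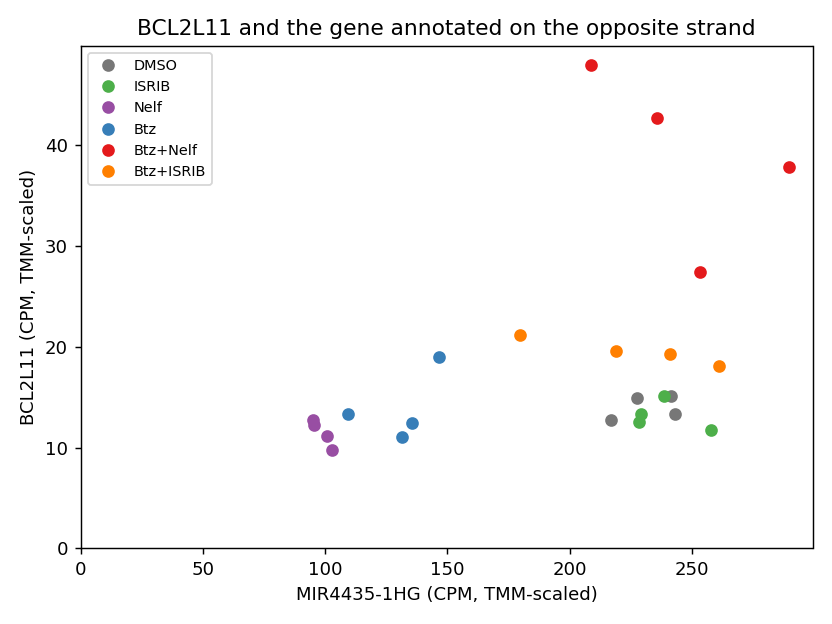
CPM of BCL2L11 (vertical axis) against CPM of the antisense gene MIR4435-1HG (horizontal axis), both linear from 0, with 1 point per library coloured by group. Btz+Nelf and Btz+ISRIB share a range of MIR4435-1HG, while BCL2L11 is 27.4 CPM or more in the first group and 21.2 CPM or less in the second.

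BMF, whose product links the cytoskeleton to the survival proteins, was the member with the largest rise under Nelf alone. It was 13.7, 9.93, 11.3 and 12.6 CPM with Nelf, against 1.16, 3.12, 2.66 and 1.84 CPM with DMSO. The 2 groups did not overlap, and the rise was 5.43-fold (log2 2.44, SE 0.375, adjusted p = 8.38e-06). In Btz it was 2.56, 0.969, 0.633 and 6.26 CPM, a range wider than that of DMSO and set by replicate 4 (29 counts, against 3 to 12 in the others). In Btz+Nelf it was 3.59, 5.67, 3.34 and 3.56 CPM, every value below those of Nelf alone. Nelf therefore gave 0.64 in the presence of Btz, short of the test (adjusted p = 0.28), and 1.57 with adjusted p = 0.00728 without Btz replicate 4. BMF was also higher in Btz+Nelf than in Btz+ISRIB, by 1.27 on the log2 scale (adjusted p = 0.0431). That call was lost in each of 4 fits that left out a library, namely Btz+Nelf replicate 2 (1.12, adjusted p = 0.096) or Btz+ISRIB replicates 1, 2 or 4 (1.20 to 1.38, adjusted p = 0.0547 to 0.0845).

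BIK, a BH3-only protein of the endoplasmic reticulum, had few counts, between 1 and 41 per library. It was 2.44, 1.56, 1.96 and 1.84 CPM in DMSO and 5.77, 2.71, 5.07 and 4.97 CPM in Btz, groups that did not overlap. The rise was 1.23 on the log2 scale (SE 0.403, adjusted p = 0.0104) and was lost with library totals as the only scaling (0.73, adjusted p = 0.117). Nelf gave 4.89, 2.84, 3.37 and 4.67 CPM, also clear of DMSO, with adjusted p = 0.0696, and the call was made by DESeq2 (adjusted p = 0.0418). In Btz+ISRIB BIK was 3.34, 1.47, 0.21 and 1.73 CPM. It fell by 1.46 on the log2 scale from Btz (adjusted p = 0.0269), with groups that overlapped, and the call was lost in 5 of 8 fits that left out a library: Btz replicate 1, 3 or 4 or Btz+ISRIB replicate 2 or 3 (log2 -1.42 to -1.08, adjusted p = 0.0505 to 0.091).

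BID, which is cut by caspase-8 to link death receptors to mitochondria, was 36.4, 39.5, 38.2 and 35.9 CPM in DMSO and 62.4, 53.7, 64.0 and 71.9 CPM in Btz. The 1.68-fold rise (log2 0.75, SE 0.107, adjusted p = 4.05e-07) was 0.25 with library totals alone (adjusted p = 0.0522). Btz+Nelf gave 50.7, 42.9, 46.1 and 48.8 CPM, below every Btz library and above every DMSO library. From Btz to Btz+Nelf BID fell by 0.42 on the log2 scale (SE 0.108, adjusted p = 0.00363), the opposite direction from BCL2L11, BBC3 and PMAIP1. Btz+ISRIB gave 60.3, 62.2, 56.0 and 54.0 CPM, which overlapped Btz. The call of lower BID in Btz+Nelf than in Btz+ISRIB (log2 -0.30, adjusted p = 0.0383) was lost in all 8 fits that left out a library of either group (adjusted p = 0.0685 to 0.189), among them Btz+Nelf replicate 2, without which it was -0.21, and in 5 of 10 other settings.

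The effector genes gave small or uncertain differences. BAX was 13.8, 13.9, 6.85 and 11.3 CPM in DMSO, where replicate 3 was lowest, and 9.19, 7.95, 6.12 and 9.29 CPM in Btz. The groups overlapped, and the fall of 0.50 on the log2 scale (log2 -0.50, SE 0.210, adjusted p = 0.0444) was lost in 5 of 8 fits that left out a library: DMSO replicate 1, 2 or 4 or Btz replicate 2 or 3 (-0.54 to -0.40, adjusted p = 0.0514 to 0.149). With Btz+Nelf BAX was 4.65, 5.67, 6.09 and 5.07 CPM, below every Btz library, and with Btz+ISRIB it was 5.34, 4.61, 7.15 and 4.19 CPM. The differences from Btz were -0.60 for both co-treatments, with adjusted p = 0.0531 and 0.0923, and the first passed the test in 4 of 10 other settings. BAK1 ranged from 4.19 to 13.9 CPM over all libraries and passed no test. In Btz+ISRIB 3 of its libraries stood at 12.6 CPM or more and replicate 4 at 4.19 CPM. Without that library the rise over Btz was 0.92 on the log2 scale (adjusted p = 0.0112), against 0.66 with it (adjusted p = 0.116).

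Of the survival genes, MCL1 rose with Btz and BCL2L1 passed no test in the fit over all libraries with TMM scaling. MCL1 was 93.4, 82.5, 82.5 and 88.3 CPM in DMSO and 188, 160, 147 and 169 CPM in Btz, a 1.92-fold rise (log2 0.94, SE 0.0946, adjusted p = 3.78e-10). It was 243, 243, 206 and 212 CPM in Btz+Nelf, above every Btz library by 0.44 on the log2 scale (adjusted p = 4.90e-04). Btz+ISRIB gave 215, 216, 180 and 224 CPM, which overlapped Btz. That rise of 0.33 (adjusted p = 0.017) was lost without Btz replicate 3 (0.27, adjusted p = 0.0735), without Btz+ISRIB replicate 4 (0.29, adjusted p = 0.054) and when only library totals were used for scaling (0.26, adjusted p = 0.0712). Btz+Nelf and Btz+ISRIB differed by 0.11 (95% interval -0.07 to 0.30). BCL2L1 averaged 83.4 ± 10.6 CPM in DMSO and 84.6 ± 7.64 CPM in Btz (SD, n = 4), and its Btz change was 0.02 on the log2 scale (95% interval -0.23 to 0.27). Its highest mean, 101 ± 18.6 CPM, was in Btz+ISRIB, where replicate 4 stood at 73.0 CPM and the others at 108 or more. Without that replicate the difference from Btz was 0.38 (adjusted p = 0.0474), against 0.25 with it (adjusted p = 0.196). BCL2L1 in Btz+Nelf was 86.2, 81.9, 111 and 98.7 CPM, and without replicates 1 and 2 it was 0.37 above Btz (adjusted p = 0.0476).

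**Figure D3:**
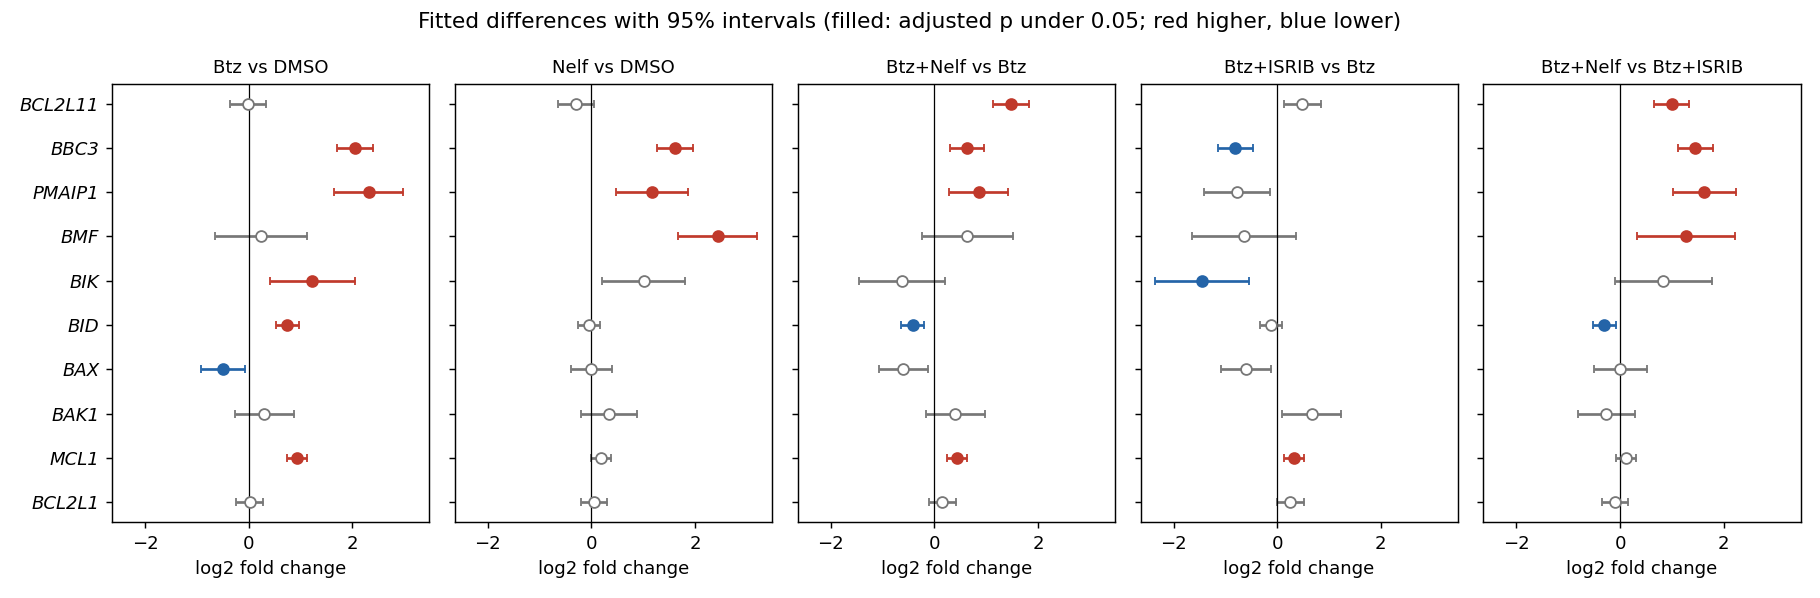
Fitted log2 fold changes (horizontal axes) of the 10 members (rows) in 5 comparisons, with 95% intervals from edgeR's quasi-likelihood fit; filled points passed an adjusted p of 0.05, red for higher and blue for lower. BBC3 is filled in all 5 comparisons, red in 4 and blue for Btz+ISRIB against Btz.

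Counted over the family, Nelf against DMSO raised 3 members (BBC3, PMAIP1 and BMF) and lowered 0, with 10.4% of tested genes higher and 8.84% lower. ISRIB against DMSO called 0 members in either direction, and the same test called 0% of tested genes higher and 0% lower. In that comparison 702 genes had an unadjusted p under 0.05, and DESeq2 called 3 genes, none of them a member. Btz+Nelf against Btz raised 4 members (BCL2L11, BBC3, PMAIP1 and MCL1) and lowered 1 (BID), with 15.6% of tested genes higher and 13.4% lower. Btz+ISRIB against Btz raised 1 (MCL1) and lowered 2 (BBC3 and BIK), with 6.89% higher and 5.34% lower. These last 2 comparisons share the Btz libraries. Btz+Nelf was above Btz+ISRIB for 4 members (BCL2L11, BBC3, PMAIP1 and BMF) and below it for 1 (BID), with 13.2% of tested genes higher and 11.2% lower. The median log2 change of the members was 0.27 for Nelf, 0.11 for ISRIB, 0.42 for adding Nelf to Btz, -0.36 for adding ISRIB to Btz and 0.47 for Btz+Nelf over Btz+ISRIB, while that of all tested genes lay between -0.025 and 0.007.

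Whether the effect of each modulator differed with and without Btz was tested as an interaction on the log2 scale. There a smaller effect means a smaller fold change, not a smaller change in CPM. For Nelf, 1 member was higher and 3 were lower, with 9.74% of tested genes higher and 10% lower. BCL2L11 was the member with a larger Nelf effect in the presence of Btz, by 1.77 on the log2 scale (SE 0.240, adjusted p = 1.39e-06). Its antisense gene MIR4435-1HG gave an interaction of the same direction (2.15). The Nelf effect on the log2 scale was smaller with Btz for BBC3 (log2 -0.98, SE 0.231, adjusted p = 0.00251). In mean CPM, BBC3 went from 18.8 in DMSO to 57.5 in Nelf, and from 77.8 in Btz to 120.6 in Btz+Nelf. The rise in CPM was therefore not smaller with Btz. The log2 effect was also smaller with Btz for BMF (-1.80, adjusted p = 0.0243) and for BIK (-1.63, adjusted p = 0.0383). BMF lost that call without Btz replicate 4 (-0.87, adjusted p = 0.298) or DMSO replicate 1 (-1.59, adjusted p = 0.06), and BIK lost it in 11 of 16 fits that left out a library. BMF also lost it without Btz+Nelf replicates 3 and 4 (-1.59, adjusted p = 0.0754), and BIK without replicates 1 and 2 (-1.32, adjusted p = 0.13). PMAIP1 gave -0.31 (95% interval -1.20 to 0.57), which did not pass. For ISRIB, 0 members were higher and 1 was lower, with 2.92% of tested genes higher and 1.89% lower. That member was BBC3 (log2 -1.11, SE 0.242, adjusted p = 0.0042), for which ISRIB gave 0.30 alone and -0.81 in the presence of Btz.

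The balance of BH3-only and survival transcripts was also taken within each library, where the scaling between libraries cancels. These ratios were given no test. For every 100 counts of MCL1 there were 2.05 ± 0.522 counts of PMAIP1 in DMSO (SD, n = 4), 4.09 ± 0.624 in Nelf, 5.39 ± 1.98 in Btz, 7.25 ± 0.483 in Btz+Nelf and 2.60 ± 1.35 in Btz+ISRIB. The Btz+ISRIB range, 1.44 to 4.56, overlapped DMSO, at 1.53 to 2.61. Against BCL2L1, Btz+ISRIB and DMSO did not overlap. PMAIP1 stood at 2.11 ± 0.394 counts per 100 of BCL2L1 in DMSO (1.73 to 2.66) and 5.10 ± 1.47 in Btz+ISRIB (4.35 to 7.30). It was 10.9 ± 4.72 in Btz (7.01 to 16.84) and 17.6 ± 3.01 in Btz+Nelf (14.74 to 21.05). The Btz range overlapped those of both co-treatments. BBC3 stood at 21.8 ± 2.61 counts per 100 of MCL1 in DMSO, 58.2 ± 9.56 in Nelf, 47.3 ± 6.85 in Btz, 54.6 ± 18.1 in Btz+Nelf and 21.6 ± 8.09 in Btz+ISRIB. For this ratio Nelf, Btz and Btz+Nelf overlapped one another, since MCL1 rose with Btz as well. BCL2L11 per 100 counts of BCL2L1 was 17.0 ± 2.00 in DMSO, 16.8 ± 5.72 in Btz and 42.4 ± 13.5 in Btz+Nelf, and the lowest Btz+Nelf library (27.8) lay above the highest Btz library (25.2). In Btz+ISRIB it was 20.2 ± 5.96, and replicate 4 (29.05) lay above the lowest Btz+Nelf library.

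**Figure D4:**
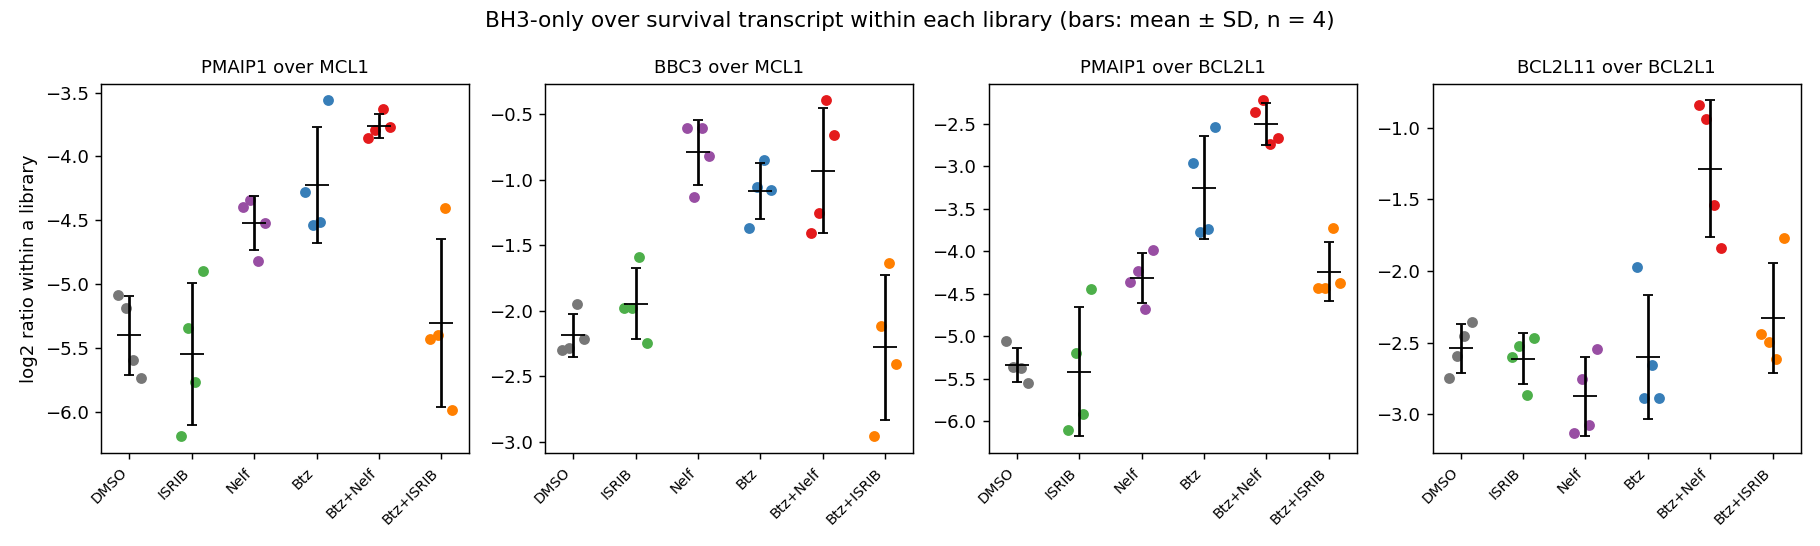
Log2 ratios of a BH3-only to a survival transcript within each library (vertical axes) by treatment group (horizontal axes); points are libraries and bars the mean ± SD of 4. PMAIP1 over MCL1 in Btz+ISRIB (mean -5.31) lies near DMSO (mean -5.40), PMAIP1 over BCL2L1 in Btz+ISRIB (mean -4.24) lies above DMSO (mean -5.34), and BCL2L11 over BCL2L1 is highest in Btz+Nelf (mean -1.29).

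The share of counts from nuclear genes was lower in the Btz libraries, and the comparison of Btz with DMSO moved with the choice of scaling. With library totals alone, the median over all tested genes moved from 0.00 to -0.50 on the log2 scale, 11.7% of genes were called higher and 49.4% lower, and 3 members were higher and 3 lower. PMAIP1, BBC3 and MCL1 stayed higher (1.82, 1.55 and 0.44). BCL2L11 (-0.51, adjusted p = 0.0133) and BCL2L1 (-0.48, adjusted p = 0.0023) were then called lower, both close to the shifted median. With the 13 mitochondrially encoded genes removed and TMM kept, 5 members were higher and 1 lower, against 25.7% and 27.4% of all tested genes.

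**Figure D5:**
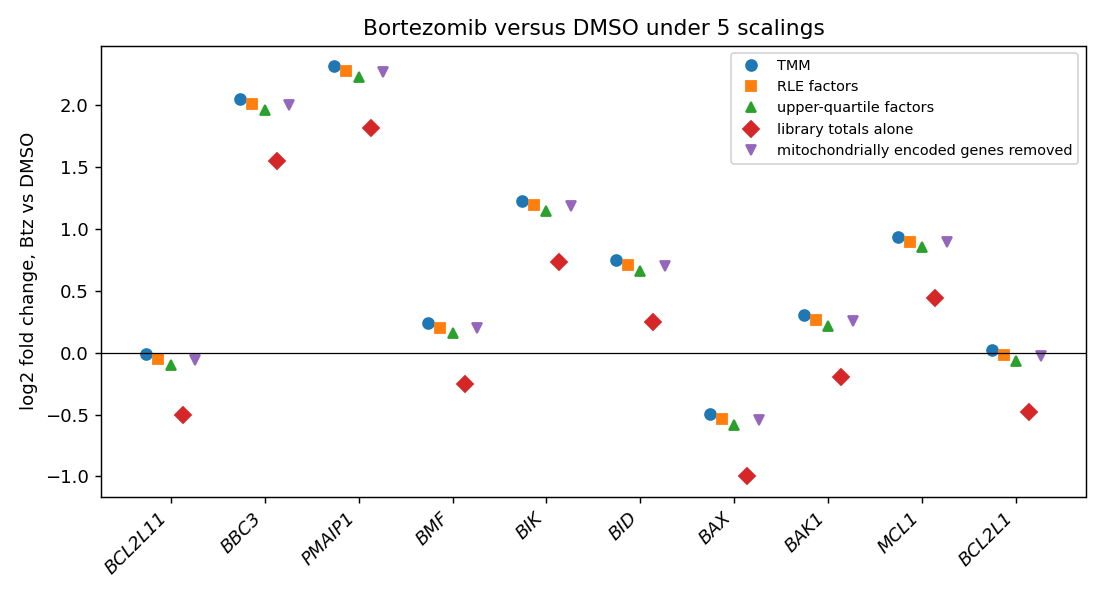
Log2 fold change of each member in Btz against DMSO (vertical axis) under 5 scalings (symbols). TMM, relative log expression (RLE), upper-quartile factors and TMM without mitochondrially encoded genes nearly coincide, and library totals alone put every member about as far below them as the median of all genes moved (-0.50).

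Other genes of the pathway were taken from 3 lists. Of 12 further BCL2 relatives 9 were tested, and Btz raised 3 and lowered 2 (median log2 change 0.20, against 0.00 over all tested genes, of which 27.6% were higher and 25.8% lower). BCL2L13, a mitochondrial receptor for mitophagy, rose by 1.27 (adjusted p = 5.43e-07), and BCL2, the founding survival gene, fell by 2.01 (log2 -2.01, adjusted p = 0.0042) from 2.77 to 0.676 CPM. HRK, a BH3-only gene, had 0 counts in the 4 DMSO libraries and 8, 0, 6 and 4 counts in Btz replicates 1 to 4, so 1 Btz library was also at 0. BCL2L13 fell back in both co-treatments, by 0.91 with Nelf (log2 -0.91, adjusted p = 3.50e-04) and by 0.74 with ISRIB (-0.74, adjusted p = 0.00686), and BCL2L2, a survival gene, was 1.42 higher with Btz+ISRIB than with Btz (adjusted p = 0.0131). Nelf alone raised 1 (BNIP3L) and lowered 1 (BCL2L12), against 10.4% and 8.84% of all tested genes.

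Of 18 genes of the mitochondrial apoptosis pathway outside the family, all tested, Btz raised 5 and lowered 8 (median log2 change -0.18). The shares of all tested genes were 27.6% and 25.8%. The largest falls were in BIRC3 (log2 -2.09, adjusted p = 1.84e-08), BIRC5 (-1.38, adjusted p = 3.03e-14), both inhibitors of apoptosis, and the nuclease ENDOG (-1.35, adjusted p = 3.70e-06), and HTRA2, a protease that antagonises such inhibitors, rose by 0.68 (adjusted p = 3.95e-05). With library totals alone 0 of these genes rose and 11 fell, while 11.7% of all tested genes were higher and 49.4% lower. APAF1, the apoptosome scaffold, was higher than in Btz by 0.65 with Btz+Nelf (adjusted p = 0.0169) and by 0.70 with Btz+ISRIB (adjusted p = 0.0219). In all 4 genes were raised and 3 lowered by adding Nelf, against 15.6% and 13.4% of all tested genes, and 3 were raised and 0 lowered by adding ISRIB, against 6.89% and 5.34%.

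Of 15 upstream regulators, all tested, Btz raised 6 and lowered 1 (median log2 change 0.30), against 27.6% and 25.8% of all tested genes. BAG3, a co-chaperone that stabilises survival proteins, rose by 3.37 (adjusted p = 1.20e-14), DDIT3 (CHOP) by 2.44 (adjusted p = 6.45e-17) and TRIB3 by 2.40 (adjusted p = 7.53e-19), and FOXO1 fell by 1.55 (log2 -1.55, adjusted p = 5.82e-07). DDIT3, TRIB3 and ATF4 rose with Nelf alone by 2.55, 2.33 and 1.90, among 4 raised and 2 lowered (all tested genes 10.4% and 8.84%). Adding Nelf to Btz raised 8 and lowered 2 (all tested genes 15.6% and 13.4%): FOXO1 by 1.62 (adjusted p = 2.06e-06), FOXO3 by 1.00 (adjusted p = 3.54e-04) and DDIT3 by 0.99 (adjusted p = 6.57e-08) rose. Adding ISRIB raised 0 and lowered 2, among them TRIB3 (-0.47, adjusted p = 0.00177), against 6.89% and 5.34% of all tested genes. The interaction with Btz was positive for FOXO1 (1.72, adjusted p = 7.47e-05), as for BCL2L11, and negative for DDIT3 (-1.56, adjusted p = 2.61e-08) and TRIB3 (-1.55, adjusted p = 1.03e-09), as for BBC3.

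The genes whose log2 CPM followed each member most closely over the 24 libraries were ranked by Pearson's r, as a description, since libraries share treatments, depth and scaling. BBC3 was closest to SESN2 (r = 0.965), a stress-induced regulator of mTORC1, to JMY (0.963) and to GKAP1 (0.957). PMAIP1 was closest to WAC (0.958), CREBRF (0.955) and CCDC174 (0.951), and BCL2L11 to FAM126B (0.914), SRGAP1 (0.907) and DIDO1 (0.905). MCL1 was closest to SNX9 (0.98), with ITPRIP at 0.977. BID was closest to PSMA7 (0.935), which encodes a subunit of the proteasome, and to ATP8B3 (0.927), and BMF to CHCHD10 (0.845), SORL1 (0.843) and PHGDH (0.828), the last a serine synthesis enzyme. BAX was closest to RBM8A (0.912), ACTR1B (0.911) and NUCKS1 (0.91). For BIK, BAK1 and BCL2L1 no gene exceeded 0.769, 0.741 and 0.739.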

How the data were processed

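The authors prepared QuantSeq 3′ mRNA-Seq FWD libraries, trimmed the 80 bp reads with cutadapt 2.8, aligned them to hg19 with STAR and counted genes of Ensembl GRCh37. As deposited, the values are raw counts per gene, not normalized. No source used here gives the counting program, its strand setting or whether molecular identifiers were counted. The 95% intervals come from the edgeR fit and include the spread between libraries. Samples were grouped by their titles. Genes were kept with edgeR 4.0.16 (filterByExpr, minimum count 5, minimum total 25), scaled by TMM and tested with its quasi-likelihood test in 1 fit over all 24 libraries. P-values were adjusted by Benjamini-Hochberg over all tested genes, with calls at 0.05. Log2 CPM used a prior count of 2. The code was tested on simulated data. No 2 libraries of a group agreed within sampling noise (chi-square per degree of freedom 2.14 or more). Alternatives included DESeq2 1.42.0, and near copies were sought with BLAST 2.17.0.

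The members and gene lists were chosen with earlier results of these data known. Named genes were every member, up to 3 called genes with the largest rise and 3 with the largest fall per list and comparison, some of them given as counts, and the 3 genes most like each member. Some genes that this rule names are not reported here. MIR4435-1HG was added after its values were seen.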

Additional observations from a re-analysis of the deposited data

Results flagged for a closer look

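In groups of 4 libraries, a highest or lowest value was singled out when its gap to the next, as a share of the group's range, exceeded Dixon's 95% critical value. Of 84 groups checked 8 met this, and chance gives about 1 in 20. They were PMAIP1 in Nelf replicate 3 (2.98 CPM, the others 4.28 to 4.54), BMF in ISRIB replicate 2 (1.31 CPM, the others 2.71 to 2.96), BMF in Btz+Nelf replicate 2 (5.67 CPM, the others 3.34 to 3.59) and BIK in Btz+Nelf replicate 4 (4.50 CPM, the others 2.32 to 2.55). BAK1 was low in Btz replicate 1 (4.92 CPM, the others 7.56 to 7.81). Btz+ISRIB replicate 4 stood apart for both BAK1 (4.19 CPM, the others 12.6 to 13.9) and BCL2L1 (73.0 CPM, the others 108 to 112). That library also had the highest mitochondrial share (40.18%) and the smallest total (5154533 counts) of all, and their part in these values was not tested. The log2 ratio of PMAIP1 over BCL2L1 was high in Btz+ISRIB replicate 3 (-3.72, the others -4.43 to -4.38).

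The effect of Nelf on the log2 scale differed with and without Btz, by the interaction term, for BCL2L11 (log2 1.77), BBC3 (-0.98), BMF (-1.80) and BIK (-1.63). The effect of ISRIB differed with and without Btz for BBC3 (-1.11).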

How the results depend on the processing

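Each member was refitted in each comparison under 10 other settings and with each library left out. Of 1600 such values 1528 stayed on the same side of the threshold, 54 lost a call and 17 gained one with an unchanged sign. The remaining 1 gained a call with the opposite sign, BCL2L1 in Btz against DMSO with library totals alone (-0.48). It was 0.02 and not called in the main fit, so no call was reversed. Members called in Btz+Nelf against Btz+ISRIB were 5, and 3 with counts thinned to the smallest library or with only the compared groups fitted. In Btz+ISRIB against Btz they were 3, and 1 with only the compared groups. For the ISRIB interaction with Btz, DESeq2 called 2 members against 1. The member counts in this section describe only how stable the calls were, and most shares of all tested genes in these refits are not reported here. Leaving out 1 library gave 3 to 4 calls in Btz+Nelf against Btz+ISRIB (3 without Btz+Nelf replicate 2, Btz+ISRIB replicate 2 or Btz+ISRIB replicate 4), 1 to 4 in Btz+ISRIB against Btz (1 without Btz replicate 3), 2 to 4 for the Nelf interaction (2 without Btz replicate 4) and 1 to 2 for the ISRIB interaction (2 without Btz+ISRIB replicate 1). Fitting only the compared groups lost BAX in Btz against DMSO, BIK and MCL1 in Btz+ISRIB against Btz, and BMF and BID in Btz+Nelf against Btz+ISRIB. In fits chosen after seeing the data, leaving out Btz+Nelf replicates 1 and 2 gave 5 calls in Btz+Nelf against Btz, and leaving out replicates 3 and 4 gave 3. Either gave 3 calls in Btz+Nelf against Btz+ISRIB, where BMF and BID were lost, and 3 for the Nelf interaction. The cause was not tested.

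No label ties the replicate numbers to a shared culture or day. Once group means were subtracted, same-numbered libraries correlated above 0.1 in 10 of 60 pairs and differently numbered ones in 7 of 180, and 14 of 24 libraries were closest to their own number. With the replicate number as a block, 5 members were called in Btz against DMSO, where BAX was lost (-0.49, adjusted p = 0.0568), 4 for the Nelf interaction and 1 for the ISRIB interaction. In that fit 27.8% of all tested genes were higher and 26.1% lower in Btz against DMSO. Low counts limit BIK, BMF and PMAIP1, which had 1 to 41, 3 to 115 and 7 to 83 counts per library.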
